A study of Mus musculus with 16 samples.

Results

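Resident colon macrophages were the cells that the deposited cell annotation calls Macrophage, 677 of 22717 cells in 46 annotated types and 677 of 4835 immune cells. They came from transverse colon of 16 female C57Bl/6J mice, 7 weeks old, profiled by single-cell RNA sequencing with 1 library per mouse. In 12 mice colitis was caused by dextran sulfate sodium (DSS), which strips the colon of its epithelial lining, at 4% of the drinking water until the tissue was taken. Of these, 6 mice received SZN-1326-p at 10 mg/kg on day 4 of DSS and 6 received an anti-GFP antibody, the control protein, at the same dose. The series title names FZD-specific activation of Wnt signaling as the means of treatment. Tissue was taken 24 h (day 5) or 48 h (day 6) after dosing from 3 mice per treatment and time. The remaining 4 mice were uninjured, 2 at each time, and the labels give no dosing for them. Each animal is a replicate, and all values below are given per mouse unless they are said to be per cell.

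Macrophages of the adult gut wall are for the most part replenished from blood monocytes, which lose Ly6C and CCR2 and gain MHC class II, F4/80 (Adgre1) and the fractalkine receptor (Cx3cr1) as they settle. A smaller set, found along vessels and in deeper layers, lasts longer and carries Lyve1, Timd4 or Cd163. Settled macrophages clear dead cells and microbes with little inflammatory output, and the complement subunits C1qa, C1qb and C1qc are among their most abundant transcripts. In colitis, monocytes enter in number. The annotation holds such cells as InjuryMono1, with 659 cells, and InjuryMono2, with 1239 cells.

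Each mouse gave 22 to 79 macrophages, with a median of 6217.5 to 13698 unique molecular identifiers (UMIs, counts of captured transcripts) per macrophage and 6031126 UMIs in all. The label fitted the markers. C1qa had 53.3 normalised UMIs per cell in macrophages, the highest of 46 types, with InjuryMono2 next at 12.97. Cx3cr1 stood at 6.45 in macrophages against 1.19 in InjuryMono2, and Adgre1 at 5.81 against 2.51, also the highest of the 46 types. Mertk, a receptor for dying cells, was highest in macrophages as well (1.31), whereas Fcgr1, the high-affinity IgG receptor, was lower in macrophages (2.10) and highest in InjuryMono1 (2.90). A level here is the UMI count divided by the cell's size factor, averaged over the macrophages of a mouse.

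RNA of other cell types was present in these libraries. Of the 677 macrophages, 418 held at least 2 defining markers of another lineage, 368 of them epithelial. The summed level of 14 epithelial markers per macrophage was 3.38 to 15.1 in SZN-1326-p mice, 3.63 to 15.4 in anti-GFP mice and 9.49 to 21.0 in uninjured mice, and none of the 14 was at 0 in every mouse of a group. The summed level of 10 B-cell and plasma-cell markers was 1.59 to 25.5, 1.47 to 3.26 and 4.25 to 10.6 in the same groups, with the 25.5 in SZN-1326-p mouse 2 at 24 h. Of 12 T-cell and NK-cell markers, 5, 4 and 7 were at 0 in every mouse of these groups. Across the whole series, 64 cell barcodes occurred in more than 1 library, and none was shared by 2 macrophages.

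Set against both injury monocyte types in the same DSS mice, macrophages had more of most resident identity transcripts and less of most monocyte transcripts. Of 13 complement genes, 4 were more than 2-fold higher than in InjuryMono2 on average and 1 was lower, and of 16 efferocytosis and scavenger receptor genes 6 were higher and 1 was lower. By the same cut, 468 of all 9244 genes were higher and 433 lower. The types were defined by clustering these same cells, so the contrast is described without a test. InjuryMono2 was compared in 12 mice and InjuryMono1 in 10 mice with at least 20 cells of both types, since uninjured mice held only 4 to 9 InjuryMono2 cells and 0 or 1 InjuryMono1 cells each. Of 9244 genes, 205 averaged more than 2-fold higher in macrophages than in InjuryMono2 and 209 more than 2-fold lower. These genes kept the same direction in every mouse and had at least 0.5 normalised UMIs per cell in the higher type. Against InjuryMono1 the numbers by the same rule were 408 and 573 of 9016 genes.

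Among genes higher in macrophages, Ccl8 had the largest mean log2 difference from either type. It encodes a chemokine of tissue macrophages that attracts monocytes and lymphocytes, and averaged 14.5 ± 7.01 in macrophages and 0.329 ± 0.25 in InjuryMono2 (SD, n = 12 mice), a mean log2 difference of 5.43 ± 1.58. In InjuryMono1 Ccl8 was at 0 in 6 of the 10 mice. Cd4, which some long-lived gut macrophages carry, averaged 2.79 in macrophages against 0.0723 in InjuryMono2. The adhesion molecule Vcam1 stood at 8.96 against 0.401, the melanosomal glycoprotein Gpnmb at 3.32 against 0.142, and the iron exporter Slc40a1 at 1.22 against 0.0519. Gas6, a bridge between dying cells and Mertk, was at 4.26 against 0.339, and the stress cytokine Gdf15 at 2.54 against 0.144.

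In the other direction stood genes of circulating monocytes. Chil3, a chitinase-like secreted protein, averaged 0.0458 in macrophages and 4.15 in InjuryMono2 among the 12 mice, and 0.0117 in macrophages and 26.3 in InjuryMono1 among the 10 mice. Plac8 was at 0.561 in macrophages against 14.4 in InjuryMono2, the matrix glycoprotein Thbs1 at 1.29 against 27.6, and Fn1, fibronectin, at 0.202 against 3.55. Ccr2, the receptor that draws monocytes out of blood, averaged 1.04 in macrophages and 11.5 in InjuryMono2, and Ly6c2 0.0223 against 1.02. The interleukin gene Il1b was transcribed in all 3 types, at 16.5 ± 5.52 in macrophages and 51.8 ± 7.20 in InjuryMono2 (SD, n = 12 mice) and at 94.3 ± 29.9 in InjuryMono1 (SD, n = 10 mice).

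All 16 measured monocyte genes were more than 2-fold lower in macrophages than in InjuryMono2 (median log2 difference −3.77), and 15 of 20 resident identity genes were more than 2-fold higher (median 1.45), where 433 of all 9244 genes were lower and 468 higher (median −0.05). The inflammatory cytokine and enzyme list had 9 of 19 genes lower and 1 higher (median −0.96), and the glycolysis list had 8 of 19 lower and 0 higher (median −0.87). MHC class II was a point of likeness with InjuryMono2 and of contrast with InjuryMono1. None of its 13 genes was more than 2-fold higher than in InjuryMono2 and 1 was lower, with H2-Ab1 at 65.7 ± 13.6 in macrophages and 59.6 ± 12.3 in InjuryMono2. Against InjuryMono1, 8 of 11 were higher and 2 lower, with H2-Ab1 at 66.7 ± 13.4 and 8.44 ± 2.94 (SD, n = 10 mice).

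**Figure D1:**
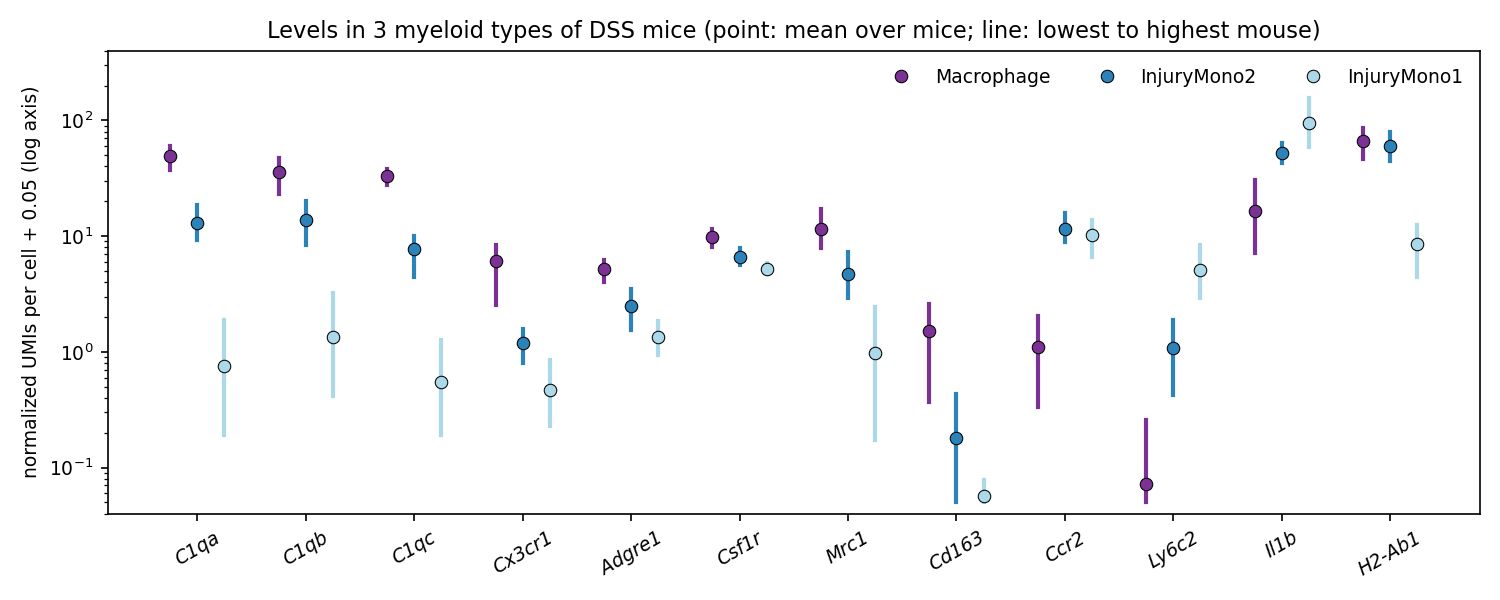
Levels of 12 genes (normalized UMIs per cell + 0.05, log axis) in macrophages, InjuryMono2 and InjuryMono1 cells of DSS mice, with points at the mean over mice and lines from the lowest to the highest mouse. C1qa, Cx3cr1 and Cd163 are highest in macrophages, Ccr2 and Ly6c2 are lowest there, and H2-Ab1 overlaps between macrophages and InjuryMono2.

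DSS changed the macrophages' place among immune cells more than their share of all cells. Among Macrophage, InjuryMono1 and InjuryMono2 cells together, macrophages made up 10.3% to 25.2% in anti-GFP mice (median 16.5%), against 83.7%, 87.2%, 88.9% and 86.8% in the uninjured mice. The groups did not overlap, and the log2 difference of the shares was −2.41 (16.9% ± 5.64 in anti-GFP, n = 6, and 86.7% ± 2.16 in uninjured, n = 4, SD; 2-sided exact permutation within times, p = 0.01, the smallest it can give, adjusted p = 0.03 over 6 share tests). Of all cells, macrophages were 1.93% to 8.44% in anti-GFP mice (median 2.80%) and 2.72%, 2.48%, 2.97% and 3.01% in uninjured mice, with overlap (exact permutation p = 0.83, adjusted p = 0.83). A share does not tell a gain of other cells from a loss of macrophages. Uninjured mice held only 4 to 9 InjuryMono2 cells and 0 or 1 InjuryMono1 cells each, so the contrast among the 3 types is partly set by the labels.

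With SZN-1326-p the macrophage share among these 3 types was higher on average but not past the corrected threshold. The 6 SZN-1326-p mice ranged between 18.3% and 32.1% (median 25.6%) and the 6 anti-GFP mice between 10.3% and 25.2%. The ranges overlapped, with 25.8% ± 5.59 and 16.9% ± 5.64 (SD, n = 6 each; log2 difference 0.65, exact permutation p = 0.03, adjusted p = 0.06). Of all immune cells the shares were 14.0% ± 3.89 in SZN-1326-p mice and 9.47% ± 3.79 in anti-GFP mice (log2 difference 0.61, exact permutation p = 0.06, adjusted p = 0.09). Of all cells they were 2.85% ± 0.92 and 3.60% ± 2.47 (exact permutation p = 0.735, adjusted p = 0.83). Without SZN-1326-p mouse 3 at 24 h or any other single mouse, the log2 difference among immune cells lay between 0.46 and 0.86.

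**Figure D2:**
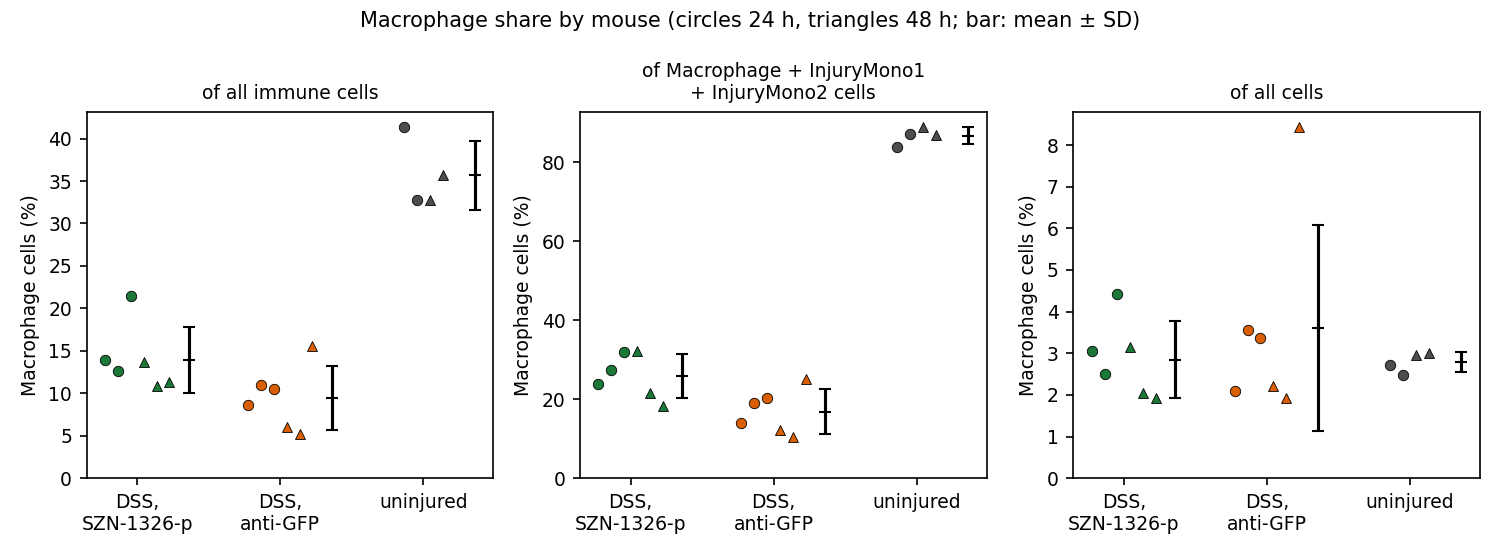
Macrophages as a percentage of immune cells, of Macrophage plus InjuryMono1 plus InjuryMono2 cells, and of all cells, by mouse (circles 24 h, triangles 48 h; bar, mean ± SD). In the middle panel the uninjured mice, at 83.7% and above, lie clear of all DSS mice, while SZN-1326-p and anti-GFP mice overlap.

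Within macrophages, DSS with anti-GFP against no injury changed 323 of 9342 genes tested (3.46%), 151 higher (1.62%) and 172 lower (1.84%), at a Benjamini-Hochberg adjusted p under 0.05. Among the genes that fell were Retnla, Lyve1, Pf4, C1qb and Atf3, and among those that rose were Ccl4, Nlrp3, Iigp1 and Psap. In each pathway list described here most members did not pass the test. Fold changes are on the log2(level + 0.05) scale, which understates changes of low genes. Uninjured values are given in the order mice 1 and 2 at 24 h, then mice 1 and 2 at 48 h.

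The gene that fell most was Retnla, which encodes RELMα, a secreted protein of alternatively activated macrophages (chromosome 16, 48842551 to 48844461, mm10). It ranged between 0 and 0.309 in anti-GFP mice (median 0), against 12.9, 6.53, 15.9 and 10.0 in uninjured mice. The groups lay far apart, with a log2 fold change of −7.26 ± 0.45 (SE) and an adjusted p of 1.06e-14. The SZN-1326-p mice, also on DSS, reached at most 0.218.

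This fall rested on few cells. In uninjured mice 13 of 176 macrophages held a Retnla UMI (7.39%), 2, 2, 3 and 6 cells per mouse, and the 5 highest cells carried 79.2% of the summed level. In anti-GFP mice 2 of 227 macrophages held a UMI (0.881%) and in SZN-1326-p mice 4 of 274 (1.46%). Thinned to 2000 UMIs per cell, the shares were 8 of 163 uninjured cells (4.91%), 0 of 207 anti-GFP cells (a count of 0 leaves room for up to 1.45%, counting error only) and 3 of 251 SZN-1326-p cells (1.20%), after 13, 20 and 23 shallower cells were left out. No cell of 1409 in TA2, an epithelial type with a median of 13618.5 UMIs against 8109 in macrophages, held a Retnla UMI after thinning. InjuryMono2 cells also held Retnla, at 16 of 1090 thinned cells (1.47%) over all groups. In the 12 DSS mice its level was higher there than in macrophages, at a mean of 1.42 in InjuryMono2 and 0.0501 in macrophages. The InjuryMono2 level ranged between 0 and 7.62 and was at 0 in 5 of the 12 mice.

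The 13 uninjured Retnla-positive macrophages differed from the other 163 uninjured macrophages in further genes, which are given as a description because the cells were picked by their Retnla. Lyve1, the hyaluronan receptor of perivascular macrophages, averaged 28.4 in the 13 cells and 1.86 in the 163. The haemoglobin scavenger receptor Cd163 averaged 10.7 and 2.53, and the mannose receptor Mrc1 17.3 and 12.6. Cx3cr1, by contrast, averaged 0.787 in the 13 cells and 7.60 in the others, and H2-Ab1 15.6 and 93.7. C1qa was present in both sets at 46.0 and 67.0, and the epithelial marker Krt8 at 2.95 and 2.48.

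The 250 bases before the RefSeq start of Retnla (RefSeq, GRCm38.p6, chr16:48842359-48842608, plus strand) are shown because Retnla is a known target of STAT6, the transcription factor of interleukin 4 signalling. Capitals mark the single match to TTCNNNNGAA, the spacing that STAT6 prefers, searched on both strands. Such a match is a description of the letters and was found in 5.85% of 32851 promoters of the same length.
Retnla: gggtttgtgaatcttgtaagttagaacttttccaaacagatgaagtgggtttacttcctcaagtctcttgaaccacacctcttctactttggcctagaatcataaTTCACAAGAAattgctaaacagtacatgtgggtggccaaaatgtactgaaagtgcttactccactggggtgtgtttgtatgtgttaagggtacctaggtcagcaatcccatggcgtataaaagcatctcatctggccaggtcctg

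Of 15 tested genes of long-lived and perivascular-type macrophages, a list without Retnla, 5 fell and 0 rose (median log2 fold change −0.85, against −0.05 over all genes). Lyve1 ranged between 0 and 0.479 in anti-GFP mice (median 0.261), against 5.56, 0.837, 3.46 and 5.08 in uninjured mice, without overlap (−3.85 ± 0.89, adjusted p = 0.0433). Timd4, a receptor for phosphatidylserine on dying cells, was at 0 to 0.273 (median 0.162), against 0.630, 0.366, 0.387 and 0.457, again without overlap (−1.47 ± 0.41, adjusted p = 0.0335). The share of macrophages with a Timd4 UMI was nearly equal after thinning to the depth used for Retnla. It was 6 of 207 anti-GFP cells (2.90%) and 5 of 163 uninjured cells (3.07%), against 10.6% and 17.6% unthinned. The difference in these shares was not tested. Cd36, a scavenger receptor for oxidised lipid, was at 0.616 to 1.71 (median 1.24), against 3.00, 2.22, 3.25 and 3.53 (−1.35 ± 0.27, adjusted p = 0.00156). Fcna and Cd209g, both pattern-binding lectins, also fell by 1.82 and 1.93 on the log2 scale, with overlapping groups for Cd209g. Cd163 did not pass the test, at 0.544 to 2.55 in anti-GFP mice and 5.86, 1.26, 2.81 and 2.98 in uninjured mice (adjusted p = 0.57).

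Of the 20 resident identity genes, 4 fell and 1 rose. Pf4, a platelet-type chemokine that gut macrophages also make, was at 7.10 to 18.0 in anti-GFP mice (median 10.98), against 22.5, 22.4, 30.8 and 25.0 in uninjured mice. The groups did not overlap (−1.24 ± 0.22, adjusted p = 7.10e-04). The complement subunit C1qb was at 23.3 to 43.4 (median 29.9), against 40.7, 63.8, 58.8 and 45.2, where the highest anti-GFP mouse overlapped the lowest uninjured one (−0.75 ± 0.17, adjusted p = 0.00438). The tetraspanin Cd81 and Adgre1 fell by 1.05 and 0.59 on the log2 scale (adjusted p = 5.51e-04 and 0.0421). C1qa and C1qc, the other subunits of C1q, did not pass the test, with log2 fold changes of −0.52 (adjusted p = 0.0525) and −0.19 (adjusted p = 0.611), and neither did Cx3cr1 (−0.30, adjusted p = 0.53) or Csf1r (−0.25, adjusted p = 0.50). Itgax, the integrin CD11c, rose to between 2.30 and 4.33 in anti-GFP mice (median 2.90), against 0.983, 1.86, 1.21 and 0.971 in uninjured mice, without overlap (1.29 ± 0.21, adjusted p = 1.19e-04). Without cells that held markers of another lineage the value of Itgax was −0.14, where the median over all genes was 0.30. In that fit, which left 2 to 15 cells per uninjured mouse, C1qa passed the test (−0.86, adjusted p = 0.0217).

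Of 16 chemokine genes tested, 3 rose and 1 fell (median log2 fold change 0.63). Ccl4, an attractant of monocytes and T cells, was at 11.4 to 31.7 in anti-GFP mice (median 12.7), against 1.30, 6.59, 2.50 and 3.09 in uninjured mice, every DSS value above every uninjured one (2.44 ± 0.46, adjusted p = 0.0149). The share of macrophages with a Ccl4 UMI, thinned to 2000 UMIs, was 52.7% of 207 anti-GFP cells and 18.4% of 163 uninjured cells (66.1% and 31.8% unthinned, at median depths of 9130 and 7641 UMIs), against 0.426% of 1409 TA2 cells. Ccl8 was at 5.02 to 21.5 (median 10.7), against 1.03, 1.87, 2.14 and 3.96 (2.42 ± 0.56, adjusted p = 0.0427), and Ccl3, a relative of Ccl4, at 5.66 to 7.70, against 3.63, 2.50, 1.99 and 4.38 (1.11 ± 0.23, adjusted p = 0.00229). Neither overlapped. Ccl24, an eosinophil attractant, fell by 2.13 on the log2 scale (adjusted p = 0.0265) with overlapping groups.

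Of 18 inflammatory cytokine and enzyme genes tested, 5 rose and 0 fell (median 0.75). Nlrp3, the inflammasome sensor, was at 2.33 to 5.81 in anti-GFP mice (median 4.03), against 1.81, 1.51, 1.34 and 2.21 in uninjured mice, without overlap (1.22 ± 0.22, adjusted p = 4.93e-04). Il1a was at 0.558 to 2.37 (median 1.66), against 0.581, 0.256, 0.434 and 0.143, and the lowest anti-GFP mouse overlapped (1.88 ± 0.35, adjusted p = 0.00229). The other 3 were Clec4e, a C-type lectin that senses mycobacterial and dead-cell lipid, Tnfaip2, and Tnfaip3, which encodes the NF-κB inhibitor A20. Il1b did not pass the test, at 12.8 to 30.5 in anti-GFP mice and 13.4, 20.5, 19.6 and 14.0 in uninjured mice (0.06 ± 0.25, adjusted p = 0.936). Tnf and the anti-inflammatory cytokine Il10 had log2 fold changes of 2.02 (adjusted p = 0.0555) and 2.25 (adjusted p = 0.096), short of the threshold. Without cells that held markers of another lineage, which left 2 to 15 cells per uninjured mouse, Tnf passed (3.275, adjusted p = 1.85e-04).

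Of 24 interferon-induced genes, 5 rose and 0 fell (median 0.64). Iigp1, a GTPase that attacks the vacuoles of intracellular microbes, was at 0.196 to 1.96 in anti-GFP mice (median 0.553), against 0, 0.0677, 0.0436 and 0.0231 in uninjured mice, with no overlap (3.04 ± 0.64, adjusted p = 0.0124), and its level in the stroma of the same mice was 2.16 and 0.732, a part that was not tested. This rise rested on few cells. An Iigp1 UMI was held by 31 of 227 anti-GFP macrophages (13.7%) and 4 of 176 uninjured macrophages (2.27%). The 5 highest anti-GFP cells carried 59.8% of the summed level, and in anti-GFP mouse 1 at 24 h 1 of 22 cells held it. Gbp5, a guanylate-binding protein, was at 0.251 to 0.876 (median 0.352), against 0.0617, 0.118, 0.229 and 0.0963 (1.47 ± 0.38, adjusted p = 0.0207). Every anti-GFP mouse exceeded every uninjured one. Ifi47, an interferon-induced GTPase, and Tap1, a peptide transporter for MHC class I, also rose.

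The Gbp5 promoter is shown because its window held both interferon motifs searched for (RefSeq, GRCm38.p6, chr3:142496684-142496933, plus strand). Capitals mark a match to GAAANNGAAA, the core of the interferon-stimulated response element, and a pair of matches to TTCNNNGAA, the gamma-activated site, searched on both strands. These motifs occur in 2.98% and 7.02% of 32851 promoters. The windows of Ifi47 and Tap1 held neither.
Gbp5: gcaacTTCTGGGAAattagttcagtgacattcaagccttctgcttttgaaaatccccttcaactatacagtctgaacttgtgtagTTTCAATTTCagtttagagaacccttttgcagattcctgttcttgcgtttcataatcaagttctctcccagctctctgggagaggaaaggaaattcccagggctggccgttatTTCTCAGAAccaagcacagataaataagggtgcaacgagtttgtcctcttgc

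Of 20 lysosome and protease genes tested, 5 rose, Psap, Ctsd, Lgmn and Ctss among them, and 1 fell (Cst3), with a median of 0.30. Psap, which encodes prosaposin, the precursor of sphingolipid activators (chromosome 10, 60277627 to 60302597, mm10), was at 51.0 to 78.2 in anti-GFP mice (median 67.1), against 25.4, 35.5, 23.9 and 27.2 in uninjured mice. The groups were clearly apart (1.24 ± 0.15, adjusted p = 5.10e-07). The protease Lgmn (0.93 ± 0.16, adjusted p = 1.36e-04) and, from the lipid handling list, the cathepsin Ctsb (0.98 ± 0.15, adjusted p = 2.00e-05) showed no overlap between groups either, with Ctsb at 39.6 to 56.0 against 23.3, 26.7, 25.1 and 23.5. Cst3, cystatin C, a secreted inhibitor of cathepsins, fell to between 8.54 and 17.8 (median 12.4), against 23.3, 23.8, 23.9 and 29.2 (−1.03 ± 0.18, adjusted p = 4.93e-04). Apoe, the lipid carrier and one of the most abundant macrophage transcripts, fell by 0.80 on the log2 scale to 215.8 ± 46.3 in anti-GFP mice (n = 6), against 380.1 ± 105.5 in uninjured mice (SD, n = 4; adjusted p = 0.00219), with overlap.

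Of 21 immediate early genes, 5 fell (Klf2, Atf3, Jun, Klf4 and Fos) and 0 rose. Klf2 changed sign without cells that held markers of another lineage (0.37), where the median over all genes was 0.30. Atf3 was at 3.05 to 4.37 in anti-GFP mice against 5.23, 8.58, 7.74 and 7.03 in uninjured mice (−0.95 ± 0.19, adjusted p = 0.00124). Jun, Atf3 and Klf4 also stood lower in the epithelium of anti-GFP mice than in that of uninjured mice (19.7 against 36.7, 6.23 against 12.5 and 7.26 against 14.3), and the part of epithelial RNA in the macrophage values was not tested. Of 15 ER chaperones 3 rose (Creld2, Canx and Hsp90b1) and 0 fell. Mmp14, a membrane-bound collagenase, rose to between 1.78 and 6.99, against 1.09, 1.36, 0.947 and 1.04 (1.71 ± 0.28, adjusted p = 7.00e-04), with 3.86 and 1.42 in the stroma of the same mice. The IgG receptors Fcgr4 and Fcgr2b rose by a log2 of 0.95 and 0.78 (adjusted p = 0.00143 and 0.00278), without overlap. None of the 13 MHC class II genes passed the test, although 11 of the 13 values were below 0 (median −0.45). The fit without cells that held markers of another lineage left 2 to 15 cells per uninjured mouse. In it H2-Eb1 (−1.10, adjusted p = 4.75e-05), H2-Ab1 (−0.97, adjusted p = 0.00279), H2-DMa (−1.31, adjusted p = 0.00307) and H2-Aa (−0.69, adjusted p = 0.00643) were among the genes that passed, all lower in anti-GFP mice. In the main fit none of 19 glycolysis genes, 23 DNA replication and mitosis genes, 5 detected Wnt target genes or 5 detected Wnt receptor genes passed the test either. The Wnt target Axin2 and the monocyte gene Ly6c2 were below the level filter.

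Several changed genes were markers of other cell types or stood higher in the epithelium. Reg3b, an antimicrobial lectin of enterocytes, was at 0.381 to 4.10 in macrophages of anti-GFP mice, against 0, 0, 0 and 0.0210 in uninjured mice (adjusted p = 0.00329), and its level in the epithelium of the same mice was 66.1 and 0.863. Of the 14 epithelial markers, 3 fell (Fabp2, Epcam and Krt8) and 0 rose (median −1.35). Krt8 was at 0.945 ± 0.465 in macrophages of anti-GFP mice (n = 6) and 2.52 ± 0.632 in uninjured mice (SD, n = 4), where the epithelium had 41.4 and 78.3. The small calcium-binding protein S100a6 fell by 1.95 on the log2 scale in macrophages (adjusted p = 2.09e-06) and was at 33.8 and 72.2 in the epithelium, while Tppp3 fell by 3.38 (adjusted p = 9.97e-09) and was at 0.190 and 2.59 there. Uninjured macrophages averaged 1.64 per cell for Tppp3. Both genes also passed without cells that held markers of another lineage (S100a6 −2.155, adjusted p = 8.33e-04, and Tppp3 −3.51, adjusted p = 0.0024). The B-lineage gene Jchain fell as well (adjusted p = 0.0176). The neutrophil gene S100a9 was at 0.0235 to 0.844 in anti-GFP mice and at 0 in all 4 uninjured mice (adjusted p = 0.0101), with 3.59 and 0 in the epithelium. The dendritic genes Siglech and Fscn1 fell (adjusted p = 4.93e-04 and 0.0294). The part of RNA from other cells in these values was not tested.

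The count of genes changed by DSS depended on single mice and on the handling of other-lineage RNA. Leaving out anti-GFP mouse 3 at 24 h gave 545 genes, leaving out uninjured mouse 1 at 48 h gave 126, and leaving out uninjured mouse 2 at 48 h gave 182. The count was 39 with a term for the summed epithelial markers and 164 without cells that held markers of another lineage, which left 2 to 15 cells per uninjured mouse. In the latter fit 23 of 68 called genes named by rule kept the call, 43 lost it and 2 changed sign. Lyve1, Timd4, Pf4, Ccl4, Nlrp3, Gbp5 and Apoe were not among the genes past the test there. Of the 69 genes named by rule and past the test, 6 passed under every alternative run (Retnla, Tppp3, Tmem37, S100a6, Psap and Blvrb).

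**Figure D3:**
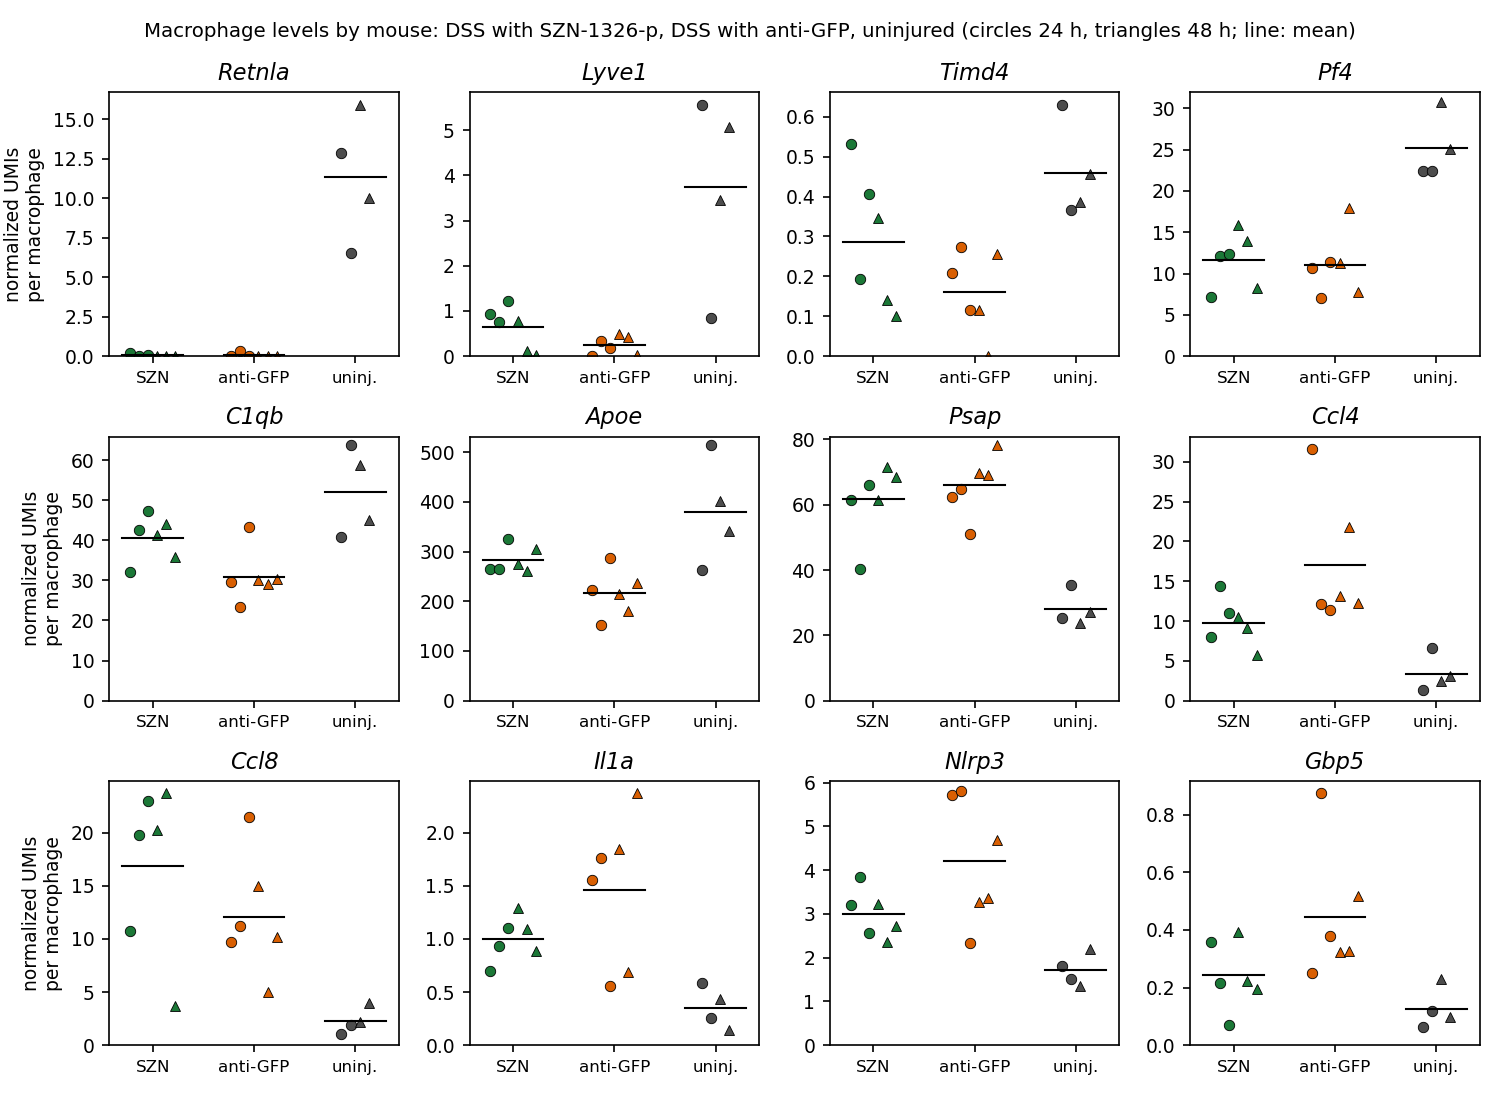
Levels of 12 genes (normalized UMIs per macrophage) by mouse in SZN-1326-p, anti-GFP and uninjured mice (circles 24 h, triangles 48 h; line, mean). Retnla, Lyve1, Timd4 and Pf4 are lower and Psap, Ccl4, Ccl8, Nlrp3 and Gbp5 higher in every anti-GFP mouse than in every uninjured mouse, whereas C1qb, Apoe and Il1a overlap.

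**Figure D4:**
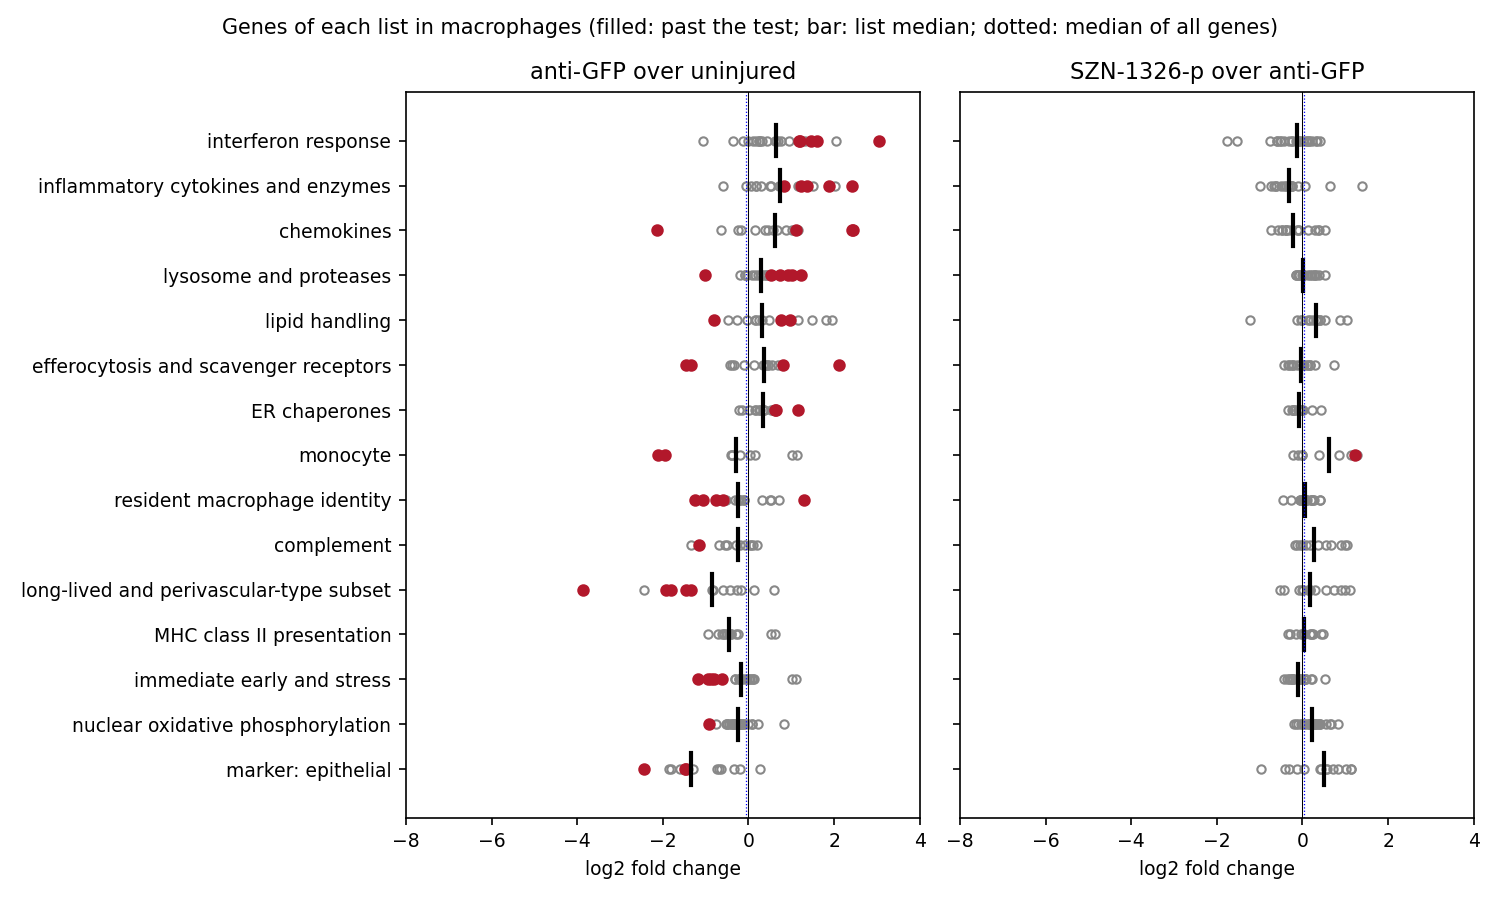
Log2 fold changes of the genes of 15 lists in macrophages, anti-GFP over uninjured on the left and SZN-1326-p over anti-GFP on the right (filled points, past the test; bar, list median; dotted line, median of all genes). The interferon list has 5 filled points on the left, all above 0, and the long-lived list 5, all below 0; on the right the one filled point is S100a6, in the monocyte list.

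Few genes measured in macrophages passed the test for SZN-1326-p against anti-GFP. Over both times 3 of 9342 genes passed the test (0.0321%), with Gpx2 and S100a6 higher (0.0214%) and Guca2a lower (0.0107%), and 741 had an unadjusted p under 0.05. By limma none passed at 24 h (0.0%, 595 with an unadjusted p under 0.05; 0 with voom weights) and 3 passed at 48 h (0.0321%, with Car2 and S100a6 higher, 0.0214%, and Guca2a lower, 0.0107%). The difference between the effects at 48 h and at 24 h passed for 0 genes (399 with an unadjusted p under 0.05). These comparisons and those of DSS share the anti-GFP mice.

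Gpx2, a glutathione peroxidase of the gut epithelium, was at 0.566 to 2.07 in SZN-1326-p mice (median 0.820), against 0.109 to 0.409 in anti-GFP mice (median 0.202). The 6 treated mice all exceeded the 6 controls (1.87 ± 0.29, adjusted p = 8.88e-04). In the epithelium Gpx2 was at 8.78 in SZN-1326-p mice and 3.60 in anti-GFP mice. Guca2a, the hormone guanylin of surface colonocytes, was at 0.0202 to 0.595 (median 0.197), against 0.289 to 0.977 (median 0.637), with overlap (−1.58 ± 0.27, adjusted p = 0.00246), and its epithelial levels were 8.36 and 33.2. The part of epithelial RNA in these values was not tested. Without the macrophages that held markers of another lineage, the log2 differences were 2.94 for Gpx2 and −2.47 for Guca2a, neither past the test.

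S100a6 was at 1.61 to 4.30 in SZN-1326-p macrophages (median 2.27), against 0.495 to 1.95 in anti-GFP macrophages (median 1.09), with overlap (1.24 ± 0.22, adjusted p = 0.00781). It did not pass without cells that held markers of another lineage (0.90, adjusted p = 0.999), nor without SZN-1326-p mouse 3 at 48 h or any single anti-GFP mouse 1 or 2 of either time (1.11 to 1.21, adjusted p = 0.0532 to 0.0781). In the epithelium it was at 24.7 in SZN-1326-p mice and 33.8 in anti-GFP mice. S100a6 belongs to the monocyte list, in which it was the only 1 of 10 tested genes to pass (list median 0.62, against 0.04 over all genes). At 48 h alone it was at 2.11, 2.44 and 3.03, against 0.495, 0.679 and 1.16, without overlap (1.70 ± 0.31, adjusted p = 0.0187). Car2, a carbonic anhydrase, rose at 48 h (2.43 ± 0.50, adjusted p = 0.044) and had epithelial levels of 8.44 and 5.51. The count at 48 h was 6 without anti-GFP mouse 3, 0 without anti-GFP mouse 1, anti-GFP mouse 2 or SZN-1326-p mouse 3, and 1 without either other SZN-1326-p mouse.

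The genes that define macrophages did not pass the test. C1qa was at 46.0 to 59.5 in SZN-1326-p mice and 37.4 to 56.4 in anti-GFP mice (0.23 ± 0.14, adjusted p = 0.724), C1qb at 32.2 to 47.2 and 23.3 to 43.4 (0.40 ± 0.15, adjusted p = 0.429), and Cx3cr1 at 4.35 to 7.16 and 2.49 to 8.37 (−0.01 ± 0.19, adjusted p = 0.999). Lyz2, lysozyme, was at 69.7 to 124.7 and 46.7 to 81.8 (0.65 ± 0.14), with an adjusted p of 0.0806. Of the 18 inflammatory genes none passed, with 15 values below 0 and 3 above (median −0.31, against 0.04 over all genes). Of the 27 nuclear oxidative phosphorylation genes none passed, with 23 above 0 (median 0.23). None of 5 Wnt target genes and 5 Wnt receptor genes that cleared the level filter passed. None of 10 fibroblast and mural markers passed, though all 10 values were above 0 (median 0.92), with their summed level at 0.560 to 14.1 in SZN-1326-p mice and 1.16 to 3.91 in anti-GFP mice.

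A single control mouse weighed heavily on this comparison. Anti-GFP mouse 3 at 24 h had the deepest macrophages of the series (median 13698 UMIs), the highest epithelial marker sum of the anti-GFP mice (15.4) and their lowest Il10 and Tnf. Its library also differed from those of anti-GFP mice 1 and 2 at 24 h in the balance of long and short transcripts. The median log2 deviation of long minus that of short transcripts in macrophages was 0.342, 0.282 and −0.140 in anti-GFP mice 1, 2 and 3 at 24 h. In SZN-1326-p mice 1, 2 and 3 at 24 h it was 0.201, −0.130 and −0.113. At 48 h it was 0.047, 0.056 and 0.037 in anti-GFP mice and −0.072, −0.057 and −0.081 in SZN-1326-p mice. In uninjured mice it was 0.056, −0.231, −0.142 and −0.046. Anti-GFP mice 1 and 2 at 24 h thus had the highest values of the series, and anti-GFP mouse 3 lay within the range of the uninjured mice. Il10 in anti-GFP mice was 4.82, 4.37 and 0.416 at 24 h and 1.78, 0.952 and 1.46 at 48 h. With SZN-1326-p it was 1.51, 0.883 and 0.495 at 24 h and 1.25, 0.427 and 0.968 at 48 h, a log2 difference of −0.97 ± 0.58 (adjusted p = 0.738). With anti-GFP mouse 3 at 24 h left out, anti-GFP mice 1 and 2 were the only 24 h controls. In that fit 57 genes passed, 48 higher and 9 lower, 19 of them ribosomal protein genes. Among them Il10 was lower (−1.52, adjusted p = 0.00428), as were Tnf (−1.16, adjusted p = 0.00729), Tnfaip3 (−0.80, adjusted p = 0.00582) and the neutrophil chemokine Cxcl2 (−0.68, adjusted p = 0.0274), and Lyz2 (0.76, adjusted p = 0.00119) and Il18 (1.64, adjusted p = 0.0173) were higher. The epithelial genes Krt8 (0.95, adjusted p = 0.0274), Car2 (1.58, adjusted p = 0.0274) and Gpx2 (1.79, adjusted p = 0.00119) were higher among these 57 too, and Guca2a was lower (−1.53, adjusted p = 0.00513). The parts of epithelial RNA and of the library difference by transcript length in these 57 calls were not tested. Without anti-GFP mouse 3 at 48 h 7 genes passed. With weights from recovered UMI counts, or without the 2 SZN-1326-p libraries whose median mitochondrial share over all cells exceeded 15% (mouse 2 at 24 h and mouse 3 at 48 h), 0 passed.

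Between 48 h and 24 h of anti-GFP, 1 gene passed the test (0.0107%). Car1, a carbonic anhydrase of colonocytes, was at 0.444, 0.254 and 0.289 at 48 h, against 1.31, 0.747 and 4.25 at 24 h (−2.17 ± 0.39, adjusted p = 0.027), and was at 28.4 and 36.4 in the epithelium. Without anti-GFP mouse 3 at 24 h 9 genes passed, and 0 passed without any single anti-GFP mouse at 48 h. Car1 kept the call in 5 of 20 alternatives, and its log2 difference was −1.49 without that 24 h mouse.

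Whether macrophages and InjuryMono2 cells differed in their response to SZN-1326-p was tested within mouse in the 12 DSS mice. The treatment difference of the macrophage-minus-InjuryMono2 level passed for 7 of 9244 genes (0.0757%), 3 higher (0.0325%) and 4 lower (0.0433%). S100a6 was at 2.55 ± 0.989 in SZN-1326-p macrophages and 1.09 ± 0.506 in anti-GFP macrophages, where InjuryMono2 cells had 9.58 ± 1.70 and 8.46 ± 2.36 (SD, n = 6 each; difference of log2 changes 1.04 ± 0.17, adjusted p = 0.0017). It passed in all 15 alternatives run, which were 2 other pseudocounts, the replicate block and leaving out each of 12 mice. The filter on other-lineage cells, count weights and leaving out the libraries of high mitochondrial share, under which S100a6 lost its call within macrophages, were not run for this difference.

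The 4 genes with a lower difference included 3 inflammatory mediators. Ccl4 averaged 9.79 in SZN-1326-p macrophages and 17.1 in anti-GFP macrophages, and 3.88 and 2.76 in InjuryMono2 (difference −1.27 ± 0.22, adjusted p = 0.0395). Cxcl2 averaged 18.9 and 26.1 in macrophages, and 18.2 and 14.6 in InjuryMono2 (−0.80 ± 0.14, adjusted p = 0.0118). Il1a averaged 1.00 and 1.46 in macrophages, and 0.762 and 0.360 in InjuryMono2 (−1.35 ± 0.29, adjusted p = 0.0399). For each of these genes the log2 change was below 0 in macrophages and above 0 in InjuryMono2, and the change in macrophages alone was not called. Ccl4 passed in 7, Cxcl2 in 13 and Il1a in 4 of the 15 alternatives. The fourth, Acp5, a lysosomal acid phosphatase, was at 7.54 and 7.35 in macrophages and 2.22 and 1.06 in InjuryMono2 (−0.94 ± 0.18, adjusted p = 0.0194).

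The other 2 genes with a higher difference were at low levels in macrophages. Nr4a2, a nuclear receptor induced by stimulation, was at 0.227 and 0.0522 in macrophages and 1.87 and 2.53 in InjuryMono2 (1.86 ± 0.36, adjusted p = 0.0194). Fn1 was at 0.312 and 0.0923 in macrophages and 2.87 and 4.23 in InjuryMono2 (1.77 ± 0.34, adjusted p = 0.0205). Nr4a2 passed in 8, Fn1 in 7 and Acp5 in 9 of the 15 alternatives. With a pseudocount of 0.01 in place of 0.05, 3 of the 9244 genes passed, and leaving out 1 mouse at a time gave 1 to 7. The lowest counts came without SZN-1326-p mouse 1 (1 gene), mouse 2 (2 genes) or mouse 3 (2 genes) at 48 h, and 4 genes passed without mouse 3 of either treatment at 24 h.

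**Figure D5:**
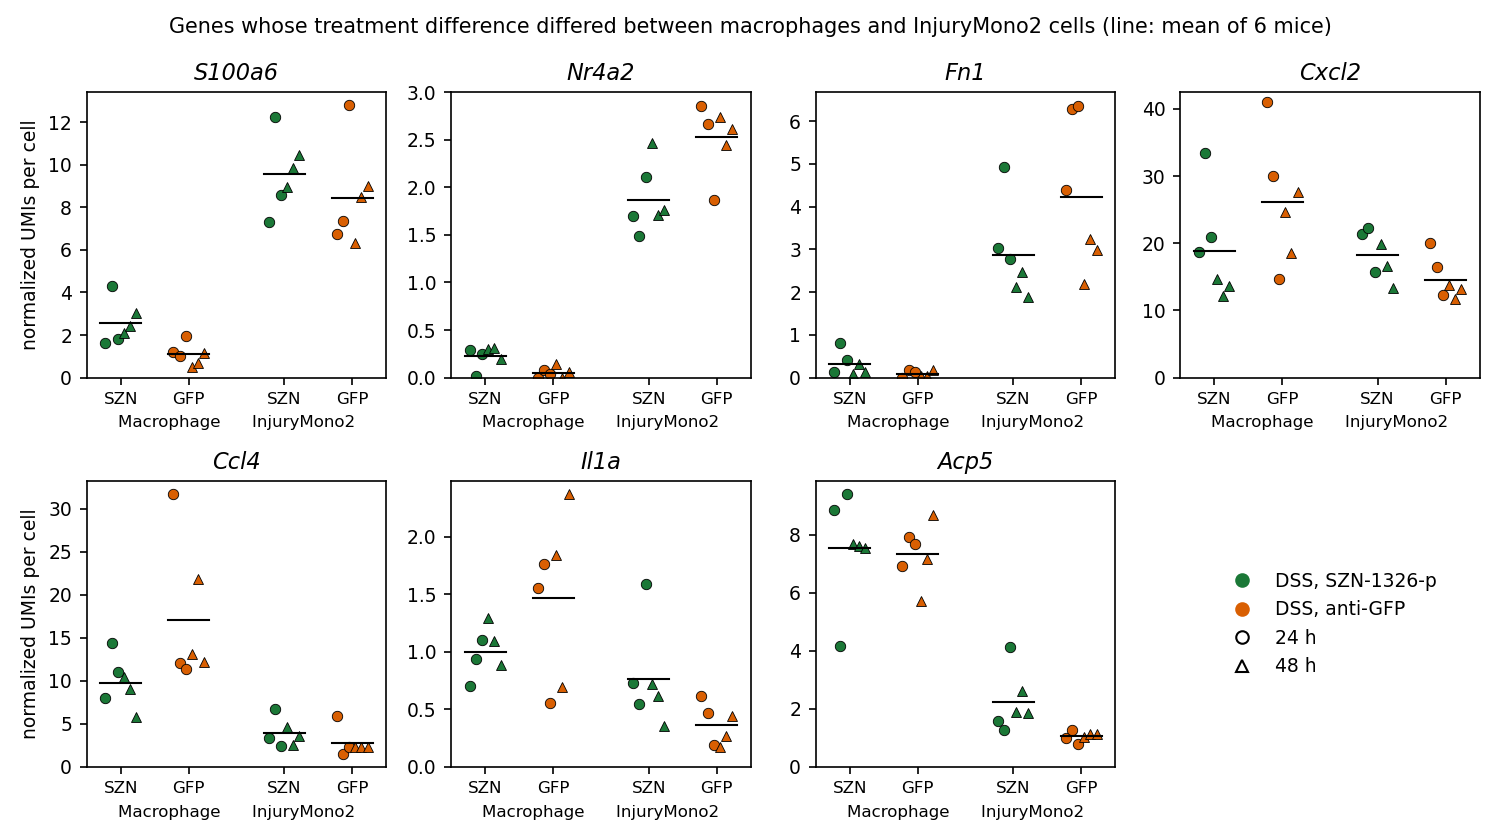
Levels of 7 genes (normalized UMIs per cell) in macrophages and InjuryMono2 cells, SZN-1326-p (SZN) left of anti-GFP (GFP), by mouse (circles 24 h, triangles 48 h; line, mean of 6 mice). In macrophages S100a6 averages 2.55 in SZN-1326-p mice and 1.09 in anti-GFP mice, while Ccl4 averages 9.79 and 17.1 and moves the other way in InjuryMono2.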

How the data were processed

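The authors deposited, per the file's values, log2(UMI count divided by a size factor, plus 1) for 16039 genes in 22717 cells, and a cell annotation. Reads were processed with Cell Ranger 3.0.2 against mm10, per the submitters' processing notes. How doublets were treated is not given in the sources used here, and no caller was run. Undoing the log2 gave whole UMI counts in 100% of 60867816 entries (tolerance 1e-06). The plan named limma, with a count model only for a matrix of raw counts. Because the deposited unit is log2, limma 3.58.1 was used (R 4.3.3, trend and robust). Un-logged values were averaged over each mouse's macrophages (at least 20 cells) and fitted as log2(mean + 0.05) in 1 model of 6 groups and 16 mice. Genes needed a mean of 0.05 over mice. A count-weighted fit on recovered UMIs (voom) called 367 genes for DSS. P-values were Benjamini-Hochberg adjusted over all genes. Shares were compared by 2-sided exact permutation of log2 shares within times. Shares of cells carry counting error only. The members and gene lists were chosen with earlier results of these data known. Named genes were, per comparison, up to 12 past the test in each direction by fold change with a level of 0.25, up to 4 per list, and fixed markers; some that met this rule are not reported here. Coordinates are GENCODE vM21 (mm10), with 15876 of 16039 symbols matched. Computation used Python 3.11.15, numpy 2.4.6, scipy 1.17.1 and pandas 2.3.3. Same-numbered mice correlated between −0.07 and 0.13, so the numbers were not taken as pairs.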

Additional observations from a re-analysis of the deposited data

Results flagged for a closer look

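Macrophages made up 21.5% of immune cells in SZN-1326-p mouse 3 at 24 h, far above the other 5 mice of that treatment (group median 13.1%). In anti-GFP mouse 3 at 48 h they made up 8.44% of all cells, against a group median of 2.80%. C1qb was at 43.4 in anti-GFP mouse 3 at 24 h, against a group median of 29.9, and Il1b at 30.5 in anti-GFP mouse 1 at 24 h, against a median of 16.3. Of 51 sets of values looked at, these 4 stood apart by Dixon's test, which flags about 1 in 20 by chance.

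The response to SZN-1326-p differed between macrophages and InjuryMono2 cells by the limma interaction for 7 genes, given as differences of log2 changes. The log2 change with treatment was higher in macrophages than in InjuryMono2 for S100a6 (1.04), Nr4a2 (1.86) and Fn1 (1.77). It was lower in macrophages for Cxcl2 (−0.80), Acp5 (−0.94), Ccl4 (−1.27) and Il1a (−1.35). These values compare changes and not levels.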

How the results depend on the processing

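For DSS, 323 genes passed, and 105 with at least 30 cells per mouse, 164 without cells holding other-lineage markers, 39 with the epithelial term (chosen after seeing the data) and 126 to 545 leaving out 1 mouse at a time. Without the other-lineage cells Itgax (−0.14) and Klf2 (0.37) changed sign, in a fit whose median over all genes was 0.30, against −0.05 in the main fit. For SZN-1326-p over both times, 3 passed, and 1 with at least 30 cells, 1 without the other-lineage cells (Lyz2, none of the 3), 0 without the high-mitochondrial libraries, 0 with voom and 2 to 57 leaving out 1 mouse. At 24 h, 0 passed, and 2 with a pseudocount of 0.2, 1 with at least 30 cells, 1 without the high-mitochondrial libraries and 0 to 4 leaving out 1 mouse. At 48 h, 3 passed, and 1 with a pseudocount of 0.01, 1 without the level filter, 1 with the epithelial term, 0 with at least 30 cells, with voom, or without the other-lineage cells or high-mitochondrial libraries, and 0 to 6 leaving out 1 mouse. For the 2 effects' difference leaving out 1 mouse gave 0 to 1. Between times of anti-GFP, 1 passed, 0 under 7 settings (pseudocount 0.01, no level filter, at least 30 cells, replicate block, other-lineage cells out, cells over 20% mitochondrial UMIs out, epithelial term) and 0 to 9 leaving out 1 mouse. For the difference between types, 7 passed, 3 with a pseudocount of 0.01 and 1 to 7 leaving out 1 mouse. The cause of these moves was not tested.

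The log2 differences of shares, leaving out 1 mouse, were 0.46 to 0.86 (immune), 0.52 to 0.84 (the 3 types) and −0.39 to 0.14 (all cells) for SZN-1326-p, and −2.24 to −1.84, −2.60 to −2.29 and −0.17 to 0.36 for DSS. With the replicate block they were 0.65 (exact permutation p = 0.0625, the 3 types) for SZN-1326-p and −2.26 and −2.66 (both exact permutation p = 0.125) for DSS. For DSS that p is the smallest this setting can give, so it could not pass the threshold. Without the high-mitochondrial libraries the 3-type share differed by 0.74 (exact permutation p = 0.05). The block gave 436 genes for DSS and 4 for SZN-1326-p, and the numbers are not shown to pair mice. Of the alternatives for called DSS genes, 1290 kept the call, 353 lost it and 2 reversed. The 22 to 79 cells per mouse limit the precision of low genes' levels.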
